A study of Mus musculus with 4 samples.

Results

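The mouse tribbles pseudokinases Trib1, Trib2 and Trib3 were described across the 4 libraries of the series. They were taken by symbol, 3 of the 49585 genes in the count files, and the family was chosen by the level of Trib2, which stood far higher in the C/EBPβ-overexpressing cells in these same counts, and for the known action of its proteins on C/EBP factors. The difference between the groups is therefore given for these 3 genes as a description, with its error and no test. All 3 were among the 15886 genes with enough fragments to be tested.

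The cells were C2C12, a mouse myoblast line of strain C3H that fuses into myotubes when serum is lowered. In the first group the cells had been retrovirally transduced to overexpress C/EBPβ, and in the second with the empty vector pLXSN. Both groups were selected in 1200 µg/ml G418 for 7 days, kept as pools of stable cells, left to proliferate for 2 days and differentiated for 2 days in 2% horse serum. For all libraries 10% fetal bovine serum and 90% confluency are also given. Each group held 2 libraries of stranded mRNA, and nothing in the labels says that these came from separate cultures, so errors and p-values measure the spread between libraries, which may be technical.

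Tribbles proteins have a kinase-like domain with little or no catalytic activity and act as adaptors. Their carboxy-terminal tail binds the ubiquitin ligase COP1 while the kinase-like domain holds a client protein, and in mouse and human cells TRIB1 and TRIB2 direct C/EBPα to degradation in this way. The family takes its name from a Drosophila gene whose product promotes the breakdown of the fly C/EBP protein. TRIB3 is best known as a stress-induced target of the transcription factors ATF4 and CHOP that binds the kinase AKT. In skeletal muscle of mice it has been linked to insulin resistance and to atrophy. Proteins were not measured in this series.

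The libraries held 50493417 and 36461091 fragments assigned to genes in the overexpressing cells, against 45448661 and 51537847 in the empty-vector cells. Cebpb, the overexpressed gene, stood at 502 and 442 CPM in the overexpressing libraries, against 42.7 and 41.2 CPM in the empty-vector libraries, where CPM is the counts-per-million value after scaling of the library totals. The 10 skeletal muscle markers summed to 4040 and 6050 CPM in overexpressing cells, against 14600 and 15800 CPM in empty-vector cells, with Myh3 and Des the highest in CPM. Of these markers 9 fell and Myf5 rose, in a series where 43.2% of all genes tested passed in edgeR's quasi-likelihood test, 22.3% as higher and 20.9% as lower. The call for Myh3 ended without either empty-vector library (adjusted p = 0.0881 and 0.110) and with no filter on low counts (0.160). The 11 macrophage markers summed to 33.1 and 31.0 CPM, against 3.75 and 3.66 CPM, and 3 of 6 tested rose and 1 fell. Itgam was the one that fell, on 2 and 8 fragments, against 19 and 26 (edgeR's adjusted p = 0.0267, DESeq2's 0.0995). It needed the empty-vector libraries to pass the filter on low counts, so a rise could not have been called. Mrc1 and Cd68 did not pass (log2 fold changes -0.84 and 0.48, edgeR's adjusted p = 0.129 and 0.0962). Ptprc had at most 1 fragment in a library and was not tested. Most of the macrophage sum in CPM came from Lyz2 (28.4 and 26.1 CPM, against 0.135 and 0.0791 CPM), Cd68 came next (3.60 and 2.84 CPM, against 2.51 and 2.13 CPM), and Adgre1 and Fcgr1 had no fragment in any library. Spi1, a myeloid transcription factor, had 12 and 11 fragments, against 0 and 4. Lyz2 had 1484 and 954 fragments, against 6 and 4. Spi1 and Lyz2 passed the filter on low counts only through the overexpressing libraries, so a fall could not have been called. Csf1r, the receptor for macrophage colony-stimulating factor, rose to 0.631 and 1.12 CPM, against 0.336 and 0.395 CPM (adjusted p = 0.0317), and Spi1 to 0.230 and 0.301 CPM, against 0 and 0.0791 CPM (adjusted p = 0.0299). Neither passed in DESeq2 (adjusted p = 0.0958 and 0.112) or without empty-vector replicate 1 (0.127 and 0.129), and Csf1r also not without empty-vector replicate 2 (0.109) or overexpressing replicate 2 (0.167). The 8 markers of fibro-adipogenic progenitors summed to 715 and 572 CPM, against 561 and 505 CPM, with Dcn and Ly6a, which did not pass (adjusted p = 0.128 and 0.227), the highest in CPM. Of these markers 3 rose and 2 fell. Pdgfra, the growth factor receptor that marks these progenitors, rose to 92.1 and 79.0 CPM, against 15.5 and 8.42 CPM (adjusted p = 0.00446, 0.0734 with no filter on low counts), and Dpt, an extracellular matrix protein, to 50.4 and 53.0 CPM, against 11.3 and 9.29 CPM (adjusted p = 6.25e-06). Pi16 rose too (adjusted p = 0.00234), and Lum and Cd34 fell (adjusted p = 0.0111 and 0.000832). The 7 adipocyte markers summed to 3.94 and 2.35 CPM, against 0.0673 and 0.0791 CPM, led by Fabp4 and Plin1, and both tested members rose. Fabp4 had 131 and 58 fragments, against 2 and 1, and Plin1 had 43 and 24, against 0 and 0. Both passed the filter on low counts only through the overexpressing libraries, so a fall could not have been called. The 6 endothelial markers summed to 1.89 and 2.00 CPM, against 2.00 and 1.98 CPM, led by Vwf and Tek. Of these Tek fell (adjusted p = 0.0361), a call that ended in DESeq2 (0.137), without either empty-vector library (0.0698 and 0.193) and without overexpressing replicate 2 (0.110). Tek had 17 and 5 fragments, against 24 and 34, and needed the empty-vector libraries to pass that filter, so a rise could not have been called. In such bulk samples fewer cells of a type and less RNA per cell cannot be told apart, and the part of these cell markers in the tribbles values was not tested.

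Tribbles genes encode the COP1-binding motif near the end of the coding region. These codons of Trib2 and Trib3 are shown because they are the part through which the family hands its clients to the ligase. Each line gives coding bases from GENCODE M21 transcripts, 5′ to 3′, with the 15 bases of the motif in capitals.
Trib2: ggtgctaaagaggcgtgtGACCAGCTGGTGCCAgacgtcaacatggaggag
Trib3: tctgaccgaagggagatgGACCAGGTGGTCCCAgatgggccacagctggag
Counted from the start codon, the motif ran from base 976 to 990 of 1032 in Trib2 and from 997 to 1011 of 1065 in Trib3. Within these 15 bases Trib2 and Trib3 shared 13. Over the whole coding region Trib1 and Trib2 were the closest, identical at 64.8% of 1018 aligned bases, against 58.0% for Trib1 and Trib3 and 57.9% for Trib2 and Trib3. No 50-base window of the transcripts of any of the 3 genes occurred unchanged in an annotated transcript of another gene. Copies with a mismatch in each window, or outside annotated transcripts, were not searched for.

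Trib2, the member that in mouse bone marrow can cause leukaemia by removing C/EBPα, showed the widest difference. Its gene (ENSMUSG00000020601.7) lies on chromosome 12 from 15791727 to 15816877 on the minus strand of GRCm38, with 4290 bases of exon. It was counted with 2666 and 2013 fragments in the overexpressing libraries, against 185 and 193 in the empty-vector libraries. In CPM this was 51.0 and 55.0, against 4.15 and 3.82. Both overexpressing libraries stood at least 12.3-fold above either empty-vector library, and the libraries of a group lay close together. The means were 53.0 ± 2.84 CPM in overexpressing cells and 3.98 ± 0.236 CPM in empty-vector cells (SD, n = 2 each), a 13.3-fold difference and a log2 fold change of 3.74 with a standard error (SE) of 0.11. Among 15886 genes this was rank 234 from the highest log2 fold change. The authors' deposited table gives Trib2 a log2 fold change of 3.64 with a standard error of 0.136.

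Trib1, which in mouse liver and macrophages is known to limit C/EBPα, was higher too. The gene (ENSMUSG00000032501.8) spans bases 59648350 to 59656550 of chromosome 15, plus strand, with 5699 bases of exon. It had 2777 and 1574 fragments in the overexpressing libraries, against 611 in each empty-vector library. These counts came to 53.1 and 43.0 CPM, against 13.7 and 12.1 CPM, so that both overexpressing libraries stood above both controls, by 3.14-fold to 4.40-fold between single libraries. Overexpressing replicate 1, which had more Cebpb than replicate 2, also had more Trib1, whereas Trib2 was slightly lower there. The means were 48.1 ± 7.15 CPM and 12.9 ± 1.15 CPM (SD, n = 2 each), a 3.73-fold difference, or 1.90 on the log2 scale with an SE of 0.13. The authors' deposited table gives 1.82 with a standard error of 0.133.

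Trib3, the stress-induced member, stood the other way. Its gene (ENSMUSG00000032715.9) lies on chromosome 2 from 152337422 to 152344032 on the minus strand, with 2125 bases of exon. It had 294 and 293 fragments in the overexpressing libraries, against 484 and 832 in the empty-vector libraries. In CPM the values were 5.63 and 8.01, against 10.9 and 16.4. The groups did not overlap, but the gap between the nearest libraries was 1.36-fold, smaller than the distance between the libraries of either group. The means were 6.82 ± 1.69 CPM and 13.7 ± 3.95 CPM (SD, n = 2 each), which gave -1.01 as the log2 fold change, with an SE of 0.25. Without empty-vector replicate 2 the log2 fold change was -0.68, and without overexpressing replicate 2 it was -1.30. The authors' deposited table gives -1.05 with a standard error of 0.195. In each group replicate 2 had both the higher Trib3 and the higher summed muscle markers, whose part in the Trib3 values was not tested.

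The groups did not overlap in any of the 3 genes, as was the case for 75.1% of all genes tested, with 38.4% higher and 36.7% lower where C/EBPβ was overexpressed. Replicates differed by 0.11 and 0.12 on the log2 scale for Trib2, in the overexpressing and the empty-vector cells, and by 0.30 and 0.18 for Trib1. For Trib3 they differed by 0.51 and 0.60, more than in 87.5% and 93.1% of all genes tested, where the median differences were 0.14 and 0.13.

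**Figure D1:**
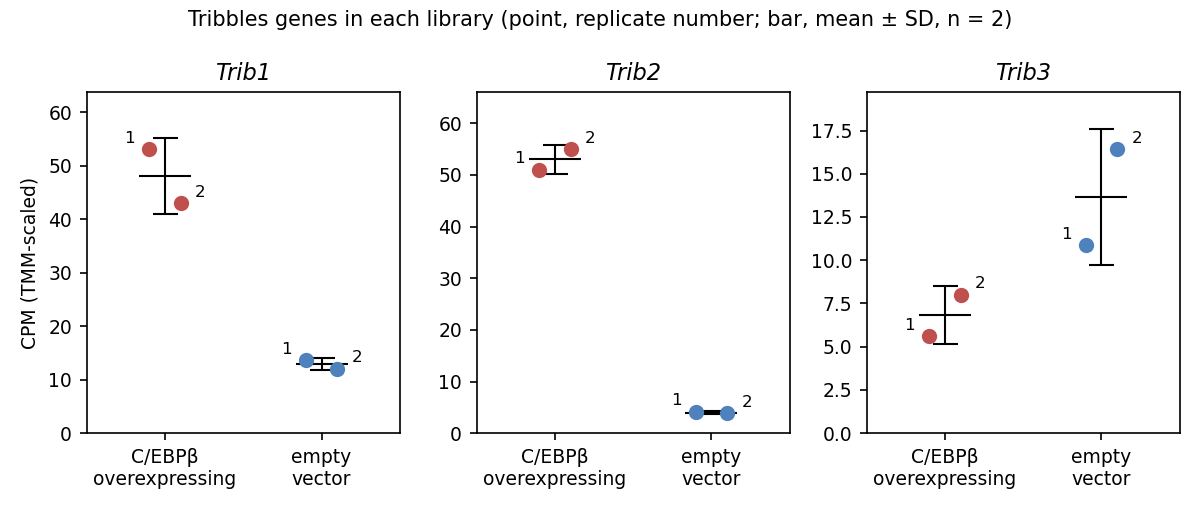
CPM of Trib1, Trib2 and Trib3 (linear y axes starting at 0, one panel each) in C/EBPβ-overexpressing and empty-vector libraries, with replicate numbers beside the points and bars for the mean and SD of n = 2. The groups lie apart in each panel, most widely for Trib2 at 51.0 and 55.0 against 4.15 and 3.82 CPM, while the Trib3 libraries of a group differ most in relative terms, by 0.51 and 0.60 on the log2 scale.

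Scaled by length, the order of the family was opposite in the 2 groups. In FPKM, which is CPM per kilobase of exon, Trib2 led in overexpressing cells at 12.4 ± 0.662, followed by Trib1 at 8.44 ± 1.25 and Trib3 at 3.21 ± 0.793 (mean ± SD, n = 2). In empty-vector cells Trib3 led at 6.42 ± 1.86, followed by Trib1 at 2.26 ± 0.202 and Trib2 at 0.928 ± 0.0551. In neither group did neighbours in this order overlap between libraries. Set among all tested genes by mean FPKM, Trib2 lay above 71.6% of genes in overexpressing cells and above 27.6% in empty-vector cells. Trib1 lay above 63.1% and 38.4%, and Trib3 above 42.9% and 57.5%.

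Added up, the 3 genes reached 24.0 ± 0.20 FPKM in overexpressing cells and 9.61 ± 1.60 FPKM in empty-vector cells (SD, n = 2 each), a 2.50-fold difference. Of this sum Trib2 made up 49.8% and 53.1% in the overexpressing libraries, against 11.4% and 8.27% in the empty-vector libraries. Trib3 made up 11.1% and 15.6%, against 60.2% and 72.0%. Trib1 made up 39.1% and 31.3%, against 28.4% and 19.7%.

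**Figure D2:**
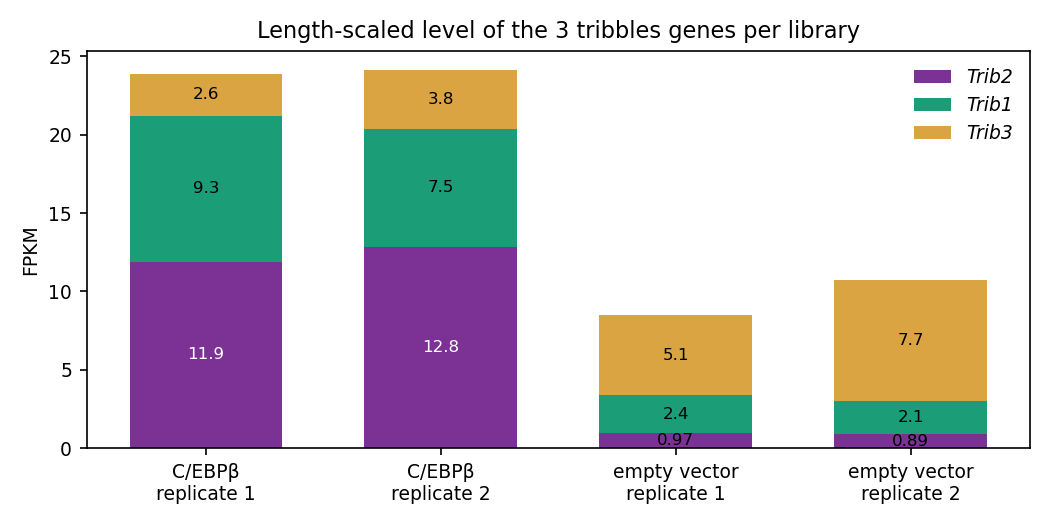
Stacked FPKM of Trib2, Trib1 and Trib3 (linear y axis from 0) in each of the 4 libraries, with the value of each gene in its bar. Trib2 is the largest part in both overexpressing libraries and Trib3 in both empty-vector libraries.

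The genes of the C/EBP family, which includes the tribbles client C/EBPα, were higher in part. Of 6 listed, 5 were tested and 3 rose, beside 22.3% of all genes tested, and the overexpressed Cebpb itself is one of the 3. Their median log2 fold change was 0.45, against 0.01 for all genes tested. Cebpa, the client best known for TRIB1 and TRIB2, stood at 59.3 and 45.4 CPM in overexpressing libraries, against 22.9 and 14.8 CPM in empty-vector libraries. It rose by 1.48 on the log2 scale (SE 0.25, edgeR's adjusted p = 0.00975), in the same direction as Trib1 and Trib2. Ddit3, which encodes CHOP, rose by 0.45 on the log2 scale (SE 0.10, adjusted p = 0.00924), while Trib3, its known target, was lower. Cebpd and Cebpg had log2 fold changes of 0.02 (SE 0.15) and 0.01 (SE 0.09) and did not pass, and Cebpe had no fragment. Per length, Cebpb reached 314 ± 28.3 FPKM and Cebpa 19.9 ± 3.73 FPKM in overexpressing cells (SD, n = 2), beside the 24.0 FPKM of the tribbles genes together. In empty-vector cells these levels were 27.9 ± 0.693, 7.13 ± 2.18 and 9.61 FPKM. The level of Cebpb covers fragments aligned to the mouse gene, and the sources used here do not say which stretch of it the vector carries.

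Genes of the COP1 ligase, which tribbles proteins recruit, changed at about the rate of other genes. Of 7 genes 3 passed, 42.9% of the list beside 43.2% of all genes. Their median log2 fold change was -0.08. Cop1 rose to 68.6 and 64.6 CPM in overexpressing cells, against 51.7 and 55.2 CPM in empty-vector cells (log2 fold change 0.32, SE 0.08, adjusted p = 0.0124). Ddb1 and Cul4a, which link COP1 to the cullin scaffold and form that scaffold, fell by 0.47 and 0.29 on the log2 scale (adjusted p = 0.0190 and 0.0298). Without empty-vector replicate 1 no gene of this list passed in edgeR, although 3 of the 7 had an unadjusted p below 0.05, and without empty-vector replicate 2 Cop1 alone passed. The call for Cul4a also ended without overexpressing replicate 1 (adjusted p = 0.121). Stk40, a pseudokinase related to the tribbles family, fell to 23.6 and 26.0 CPM, against 33.9 and 38.2 CPM (log2 fold change -0.54, SE 0.10, adjusted p = 0.00351).

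Among 6 other substrates of COP1 the ETS factors moved both ways. Etv1 and Etv5 rose by 0.74 and 0.47 on the log2 scale (adjusted p = 0.00155 and 0.00819), and Etv4 fell by 0.46 (adjusted p = 0.0144), a call that ended without either empty-vector library (0.0573 and 0.0528) and without overexpressing replicate 1 (0.0825). Acaca, the acetyl-CoA carboxylase that TRIB3 brings to COP1 in mouse fat tissue, stood at 44.9 and 47.9 CPM, against 46.1 and 41.7 CPM, a difference that missed the threshold (adjusted p = 0.492). The list's median was 0.10.

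The kinase and FOXO partners of tribbles proteins were mostly lower. Of 9 genes 5 fell, 55.6% beside 20.9% of all genes, and 1 rose. Their median on the log2 scale was -0.29. Akt2, the AKT isoform most tied to insulin action, was at 120 and 125 CPM in overexpressing cells, against 209 and 198 CPM in empty-vector cells, and fell by 0.73 on the log2 scale (SE 0.08, adjusted p = 0.000384). Akt1 fell by 0.48 (adjusted p = 0.00516). Foxo1 and Foxo4, transcription factors restrained by AKT, fell by 0.38 and 0.32 (adjusted p = 0.00829 and 0.00975), and Map2k4, a kinase of the JNK pathway, fell by 0.29 (adjusted p = 0.0305). Foxo3, the factor that TRIB2 is known to restrain in human melanoma cells, did not pass (0.16, SE 0.09, adjusted p = 0.170), nor did Map2k1, which TRIB1 binds (0.05, SE 0.08, adjusted p = 0.675). Without empty-vector replicate 2 the number of changed genes in this list was 3, and the calls for Foxo4 and Map2k4 were among those that ended (adjusted p = 0.0532 and 0.189). The call for Foxo1 ended without empty-vector replicate 1 (0.0505), those for Foxo4 and Map2k4 also without overexpressing replicate 1 (0.0523 and 0.132), and that for Map2k4 with library sizes alone (0.0569).

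Trib3 is a known target of ATF4, and its promoter is shown because the ATF4 response bears on it. The promoter table from RefSeq (GRCm38.p6) held Trib2 and Trib3 and gives 250 bases before and 50 bases after the start of transcription. The capitals mark matches to the composite element that ATF4 and C/EBP proteins bind, searched as TGATGNAA and with the third base free as TGNTGNAA on both strands, so that each match of the first is also a match of the second.
Trib3 (chr2:152344011-152344310, minus strand): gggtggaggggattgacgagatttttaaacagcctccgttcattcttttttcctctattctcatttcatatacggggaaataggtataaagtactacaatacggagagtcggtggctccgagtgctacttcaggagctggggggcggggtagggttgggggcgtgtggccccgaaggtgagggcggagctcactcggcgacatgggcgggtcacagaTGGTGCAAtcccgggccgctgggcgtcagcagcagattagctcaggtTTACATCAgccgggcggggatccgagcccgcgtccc
Trib2 (chr12:15816736-15817035, minus strand): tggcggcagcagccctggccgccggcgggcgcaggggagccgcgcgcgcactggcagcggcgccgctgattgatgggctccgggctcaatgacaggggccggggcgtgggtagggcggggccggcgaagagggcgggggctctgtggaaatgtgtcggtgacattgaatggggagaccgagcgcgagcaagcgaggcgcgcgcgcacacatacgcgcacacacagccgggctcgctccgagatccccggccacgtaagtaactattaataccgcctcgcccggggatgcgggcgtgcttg
The window of Trib3 held 2 matches, TGGTGCAA starting 33 bases before the start and TTACATCA on the other strand starting at base 15 after it. The letters TGATGNAA occur in 3.97% of the 32851 promoters in the table and TGNTGNAA in 14.8%. Neither window held the C/EBP letters TTGCNNAA (10.8% of promoters), the palindrome TTGCGCAA that they include (0.183%) or the cyclic AMP response element TGACGTCA (1.79%), and that of Trib2 held none of these motifs. Trib1 was not in the table.

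Many genes of the ATF4 response were lower, as Trib3 was. Of 17 genes tested 8 fell, 47.1% beside 20.9% of all genes, and 1 rose, with a median log2 fold change of -0.59 against 0.01 for all genes tested. Atf4 itself, whose activity is set largely by translation, was at 444 and 445 CPM in overexpressing cells, against 427 and 500 CPM in empty-vector cells, with a log2 fold change of -0.06 (SE 0.11) that missed the threshold. Phgdh and Psat1, the first enzymes of serine synthesis, fell to 32.5 ± 9.73 and 205 ± 59.6 CPM in overexpressing cells, against 101 ± 17.5 and 399 ± 51.4 CPM in empty-vector cells (SD, n = 2 each, adjusted p = 0.00765 and 0.0153). Both calls ended without either empty-vector library (adjusted p = 0.0646 and 0.0902 for Phgdh, 0.0646 and 0.135 for Psat1). Chac1, which breaks down glutathione, Shmt2, a mitochondrial one-carbon enzyme, and Atf3, a stress-induced repressor, fell by 0.73, 0.66 and 1.04 on the log2 scale (adjusted p = 0.00137, 0.00278 and 0.00552).

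The remaining genes of this list that fell were Fgf21, Slc7a11 and Ppp1r15a, with log2 fold changes of -1.71, -1.21 and -0.44. Fgf21, a hormone that stressed muscle releases, lost its call without either empty-vector library (adjusted p = 0.260 and 0.286) and without a filter on low counts (0.223), and Slc7a11, the cystine transporter, in DESeq2 (0.0519), without either empty-vector library (0.0720 and 0.218) and without overexpressing replicate 1 (0.118). Vldlr, the very low density lipoprotein receptor, rose by 1.46 (adjusted p = 0.0107). Asns and Mthfd2, enzymes of asparagine and folate metabolism, had log2 fold changes of -0.74 and -0.59 and did not pass (adjusted p = 0.143 and 0.118). They passed as lower with the replicate number as a block (0.000835 and 0.000464) and without robust estimation (0.0408 and 0.0472). Without overexpressing replicate 1 the log2 fold changes were -0.39 and -0.30, and without overexpressing replicate 2 they were -1.20 and -0.96. These last fits kept 1 overexpressing library, so they hold no spread of that group. The count of changed genes in the list was 5 without empty-vector replicate 1 and again 5 without replicate 2. Several of these genes, like Trib3, were higher in replicate 2 of both groups, among them Phgdh at 25.6 and 39.3 CPM in overexpressing replicates 1 and 2, against 88.4 and 113 CPM in empty-vector replicates 1 and 2.

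No tested gene around Trib1 or Trib2 passed the threshold, which 43.2% of all genes tested passed. The genes tested there were too few to set against that share. Within 500 kb of Trib1 3 genes were tested, and none passed in edgeR, in DESeq2 or in limma-voom, nor at an unadjusted p below 0.05. The nearest of them, Nsmce2, a subunit of a chromosome maintenance complex, lies 46667 bases from Trib1 and had 43.9 and 44.2 CPM in overexpressing cells, against 47.0 and 53.0 CPM in empty-vector cells (log2 fold change -0.18, SE 0.08, adjusted p = 0.112). Around Trib2 a single gene was tested, the pseudogene Gm4804, on 13 and 5 fragments, against 12 and 20. Its means were 0.193 CPM against 0.332 CPM. It passed in none of the 3 tools and not at an unadjusted p below 0.05 either. Mir6387, a microRNA gene within the body of Trib2 but outside its exons, had no fragment in any library.

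Trib3 lies among more expressed genes, and of 14 tested within 500 kb 5 rose and 2 fell, so that 7 of 14 changed, beside 43.2% of all genes tested. Its nearest tested neighbours, Rbck1 at 4769 bases and Gm14165 at 9583 bases, did not pass (log2 fold changes 0.22 and 0.47, adjusted p = 0.0952 and 0.142). Rbck1 passed as higher without overexpressing replicate 2 (adjusted p = 0.0145) and with the replicate number as a block (0.0202). Angpt4, an angiopoietin, had the widest difference of the 14, at 155 and 136 CPM in overexpressing cells, against 2.13 and 1.36 CPM in empty-vector cells (log2 fold change 6.39, SE 0.19), and lies 392085 bases away. Srxn1, Tbc1d20, Sox12 and Id1 rose by 0.55, 0.39, 0.996 and 0.59 on the log2 scale, and Fam110a and Bcl2l1 fell by 0.51 and 0.55. The calls for Tbc1d20 and Sox12 ended without empty-vector replicate 2 (adjusted p = 0.0615 and 0.0520). Over the 3 surroundings 7 of 18 genes changed, 38.9% beside 43.2% of all genes tested. Without overexpressing replicate 2 these were 11 of 18 genes, 61.1% beside 44.8% of all genes in that fit.

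**Figure D3:**
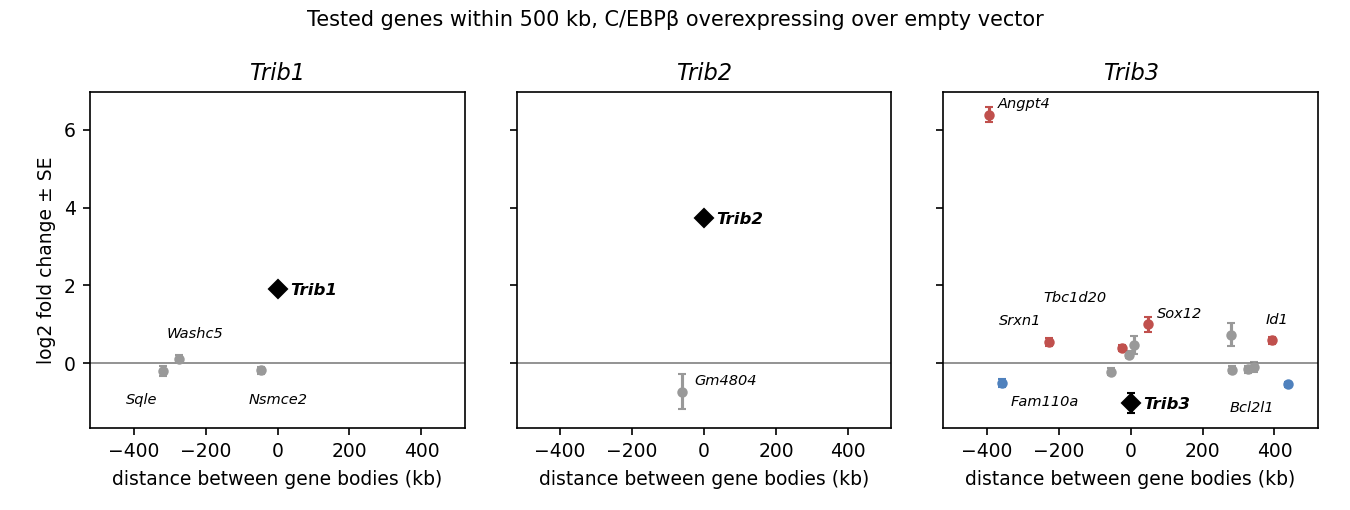
Log2 fold change of C/EBPβ-overexpressing over empty-vector cells (y axis, bars for the SE, n = 2 each) of the tested genes within 500 kb of each tribbles gene, by distance between gene bodies in kb (negative towards lower coordinates). Diamonds mark Trib1, Trib2 and Trib3, red and blue circles the genes past the threshold as higher or lower, and grey circles the rest, and the 4 neighbours of Trib1 and Trib2 are all grey.

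The genes whose pattern over the 4 libraries lay nearest to each member were found among 13276 tested genes by the Euclidean distance of centred log2 CPM with a prior count of 2, an offset that draws low counts together. Nearest to Trib1 was Tnfrsf21, a death receptor, at a distance of 0.0742, with 18.7 and 16.2 CPM in overexpressing cells, against 4.87 and 4.39 CPM in empty-vector cells, followed by Mir155hg, Plpp3, N4bp2l1 and Garem2. For Trib2 the measure gave Cd33, H2-DMb2, Serpina3c, H2-K1 and Apoc1, an order that rests on the offset. H2-DMb2 and Serpina3c had no fragment in the empty-vector libraries, so their likeness to Trib2 is not defined without it. With no prior count, over the genes with a fragment in every library, H2-K1 lay at 0.219 from Trib2, whereas Cd33 lay at 0.486 and Apoc1 at 1.14, and H2-K1 was the 1 of the 5 genes that stayed among the nearest 5. H2-K1, an MHC class I heavy chain whose close relatives can take up its fragments, had 811 and 776 CPM in overexpressing cells, against 53.3 and 53.7 CPM in empty-vector cells. For Trib1 and Trib3 the 2 versions shared 2 and 3 of 5 genes, Tnfrsf21 (0.0753) and Plpp3 (0.0859) for Trib1 and Egflam (0.140) and Ttn (0.160) among those for Trib3. The version with no prior count was added after the data had been seen. Among those nearest to Trib3 were Egflam, Ttn, Gabrb2 and Ucn2, at distances of 0.148 to 0.177. Gabrb2 had 8 and 9 fragments, against 16 and 24, and Ucn2 had 5 and 6, against 10 and 16. Both needed the empty-vector libraries to pass the filter on low counts. With no prior count they lay at 0.209 and 0.224 and were not among the nearest 5. Ttn, the giant spring protein of the sarcomere, had 873 and 1354 CPM in overexpressing cells, against 1699 and 2375 CPM in empty-vector cells, and like Trib3 was higher in replicate 2 of each group. These distances rest on 4 libraries and describe likeness of pattern across them only. The level of a gene does not enter, because each gene was centred on its own mean.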

How the data were processed

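Fragment counts per gene were deposited by the authors for each library. HISAT2 2.0.4, the build GRCm38 and featureCounts 1.4.6 are named in the submitters' processing notes. The version in the counts is 1.5.1 per the file headers, with reverse-stranded pairs set against GENCODE M12. Gene length is, per the file headers, the summed exon length. The authors' deposited table has log2 fold changes and their standard errors, a normalised signal averaged over libraries, a test score and p-values. DESeq2 is named in the notes without a version. The libraries behind that table are not named there.

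Symbols came from GENCODE M21, which matched 49326 of 49585 genes. Genes passing filterByExpr (minimum count 10, minimum total 15) were TMM-scaled and compared with edgeR 4.0.16 in R 4.3.3 (glmQLFit with robust estimation, glmQLFTest, 2-sided, Benjamini-Hochberg over all 15886 genes, threshold 0.05). Alternatives used DESeq2 1.42.0 and limma 3.58.1. With 2 libraries a group, the smallest 2-sided p of an exact permutation test is 0.333. Sequences were aligned with Biopython 1.88.

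The members and lists were chosen with earlier results of these data known. Always named were the members, the C/EBP genes, Cop1, Stk40, Atf4, Akt1, Akt2, Foxo1, Foxo3, Acaca and Map2k1. In each partner list the 3 genes with the smallest p were added, for each member its 5 nearest genes and its nearest neighbour on each side, and in each marker list the 2 most abundant genes. Other list members and neighbours were named after their values were seen. Some items are not reported here.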

Additional observations from a re-analysis of the deposited data

How the results depend on the processing

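The log2 fold changes of Trib1, Trib2 and Trib3 kept their direction under all 12 alternatives, from 1.74 to 2.03, 3.66 to 3.79 and -1.30 to -0.68. Leaving out 1 of 2 libraries moves a group mean by less than the replicates differ, so the size of those moves was bounded by the design. Under the alternatives that kept all 4 libraries the values ran from 1.89 to 1.96, 3.73 to 3.79 and -1.04 to -0.96. With libraries left out in turn, 4005 to 7414 genes changed (6864 with all 4 libraries), 0 to 3 in the COP1 ligase list (3 with all 4 libraries), 3 to 6 among kinase and FOXO partners (6 with all 4 libraries), 5 to 12 in the ATF4 response (9 with all 4 libraries) and 5 to 11 among neighbours (7 with all 4 libraries). At the lowest count, without empty-vector replicate 2, 2169 genes were higher and 1836 lower. Other scalings, tests and filters left every count within 1.5 times the main one. The labels do not say what equal replicate numbers share. Deviations of same-numbered libraries correlated across genes with r = 0.147, and with the replicate number as a block 7676 genes changed. Of 63 named genes, 32 kept call and direction throughout. With libraries left out in turn, directions reversed for genes that did not pass in the fit of all 4: Atf4 ranged from -0.172 to 0.058, Cebpd from -0.143 to 0.148, Cebpg from -0.0896 to 0.121, Map2k1 from -0.0444 to 0.122 and Vwf from -0.0851 to 0.472 on the log2 scale. The cause was not tested. Where a group kept 1 library, that library was assumed to vary like the other group. Trib3 had the largest SE of the 3 members, and Trib2 the fewest fragments, 185 and 193 in empty-vector cells.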
